A study of Mus musculus with 5 samples.

Results

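Myc and its partner factors were followed in epithelium of mouse intestinal tumours and in normal intestinal epithelium. The group comprised 9 genes, namely Myc, Mycn, Max, Mxd1, Mxd3, Mxd4, Mxi1, Mnt and Mlx, out of 12393 genes named on the array. All 19 probe sets that the platform annotation assigned to these genes were used, and the genes were set by name, not by a threshold on values. A probe set is a set of short probes against one stretch of transcript. Myc, Max and Mxd1 had 1 probe set each, and the other 6 genes had 2 to 4.

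Expression was measured on 5 Affymetrix arrays. The tumour group consisted of 3 arrays from intestinal tumours of Apc1638N mice on the C57Bl6/J strain (tumours 16, 18 and 2). The wild-type group consisted of 2 arrays, wild types 36 and 62, from normal epithelial cells of the intestine of C57Bl6/J mice. By the labels every animal was a male of 8 months, kept under specific pathogen-free conditions, and name no other allele or treatment. Apc1638N mice carry a germline mutation of Apc, the scaffold protein of the complex that degrades beta-catenin, so every cell of these animals carries the allele and the normal tissue came from other animals. Cells were taken by laser capture microdissection, a way to cut selected cells out of a tissue slice under the microscope. The labels do not say where along the intestine the samples lay or whether any animal gave more than 1 of them, so the p-values reflect only how these samples vary, which may be technical.

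Myc is a transcription factor of the basic helix-loop-helix leucine zipper class and acts as a dimer with Max. Myc-Max dimers bind the E-box and activate genes of growth, ribosome production and cell division. The Mxd proteins, Mxi1 and Mnt compete for Max, bind the same sites and recruit the Sin3 repressor complex, so they oppose Myc. Mlx is a Max-like protein that pairs with the Mondo proteins Mlxip and Mlxipl, which respond to glucose, and also with some Mxd proteins and Mnt. In intestinal epithelium Myc is a target of Wnt signalling and is expressed in the dividing cells of the crypt, while several Mxd genes are known from differentiating cells.

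The E-box is spelled CACGTG and reads the same on both strands. RefSeq promoter windows of assembly GRCm38.p6, running from 250 bases before to 50 bases after a start site, were matched by symbol for 8 of the 9 genes in 10 windows. Myc had no window in the table and was not searched. An E-box was present in the windows of Max, Mlx, Mnt and Mxd4, which is 4 of 8 genes, against 8.09% of all 27025 genes with a window. These 4 sequences are shown because they place the binding site of the family next to genes of the family itself. Each is written 5′ to 3′ on the strand of its gene with up to 50 bases on either side and no base beyond the start site except within the E-box, which is in capitals.
Max, chr12:76962246-76962301, minus strand: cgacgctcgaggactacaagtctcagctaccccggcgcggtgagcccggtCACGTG
Mlx, chr11:101087200-101087289, plus strand: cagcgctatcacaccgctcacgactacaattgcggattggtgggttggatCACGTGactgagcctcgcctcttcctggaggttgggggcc
Mnt, chr11:74830751-74830856, plus strand: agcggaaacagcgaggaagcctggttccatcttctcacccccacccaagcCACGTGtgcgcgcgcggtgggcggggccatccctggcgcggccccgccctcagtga
Mxd4, chr5:34187874-34187960, minus strand: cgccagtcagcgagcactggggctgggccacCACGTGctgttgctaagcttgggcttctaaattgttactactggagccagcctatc

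The E-box began 3 bases before the start site in Max, 40 before it in Mlx, 123 before it in Mnt and 219 before it in Mxd4. The core letters of the site bound by Tcf and Lef, the partners of beta-catenin, are CTTTG. On either strand they were present in 3 of the 8 genes (Mnt, Mxi1 and Mycn), against 57.4% of all genes with a window. A match is a description of the letters and does not show that a factor was bound.

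**Figure D1:**
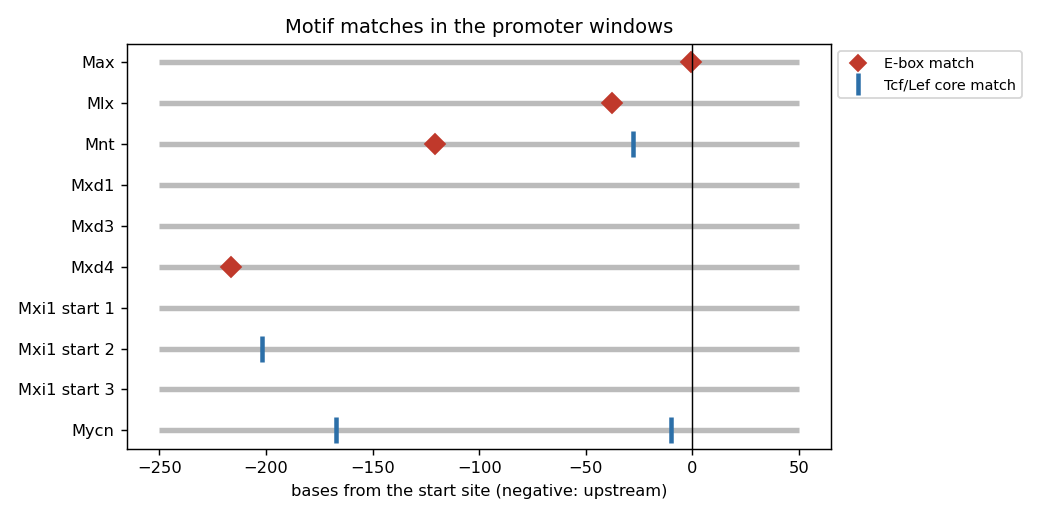
Positions of the E-box (diamonds) and of the Tcf/Lef core (bars) in the promoter windows, in bases from the start site, with 1 row per window and 3 windows for Mxi1. The E-boxes lie 3, 40, 123 and 219 bases before the start sites of Max, Mlx, Mnt and Mxd4.

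The array table held log2 signals with array medians from 6.81 to 6.87 and 25th percentiles from 6.03 to 6.06. Across probe sets, r was 0.983 to 0.991 among the tumour arrays and 0.909 to 0.937 between tumour and wild-type arrays. Presence calls were not used here, so a signal near the 25th percentile cannot be told from background. Among 10 intestinal epithelial markers, which include Epcam, Cdh1, Krt8, Vil1 and Cdx2, the mean level was 10.80 to 11.19 in the tumours and 10.85 to 10.96 in the wild types. These means joined opposite changes, as Krt18 and Krt19 rose by 2.44 and 1.20 and Vil1 fell by 1.26. The other 7 did not pass, among them Krt20 with a change of -1.82. The mean marker levels of several other populations differed between the groups. The mean level of 8 absorptive enterocyte markers was 7.85 to 9.32 in tumours and 12.06 to 12.35 in wild types, and that of 9 proliferation markers was 8.31 to 8.38 and 7.43 to 7.73. For 13 leukocyte markers it was 6.82 to 7.12 in tumours and 7.88 to 7.99 in wild types, and for 11 fibroblast and muscle markers 7.73 to 8.72 and 7.02 to 7.28. Of the leukocyte markers 5 fell and 8 did not pass, and 4 of the 13 had changes above 0. Of the fibroblast and muscle markers 2 rose (18.2%, against 10.5% of all genes), 9 did not pass and 2 of the 11 had changes below 0. Endothelial markers (6.37 to 6.68 and 6.26 to 6.46) and nerve and glia markers (6.32 to 6.41 and 6.36 to 6.37) overlapped between the groups. Beta-actin had a larger 3′ minus 5′ signal, a sign of less complete labelled RNA, in tumours by 1.24, and Gapdh by 0.80. The part of these differences in the results below was not tested. In such samples, more cells of a type and more RNA per cell cannot be told apart.

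The comparison asked which members of the network differed between tumour and normal epithelium. Myc was higher in tumours, and Mxi1 and Mlx were lower. Of the 19 probe sets, 1 rose, 3 fell and 15 did not pass an adjusted p of 0.05 in limma. These 4 were 21.1% of the probe sets, against 18.3% of all 22626 probe sets that passed in either direction, so the share called was close to the background. Over all probe sets 9.58% rose and 8.72% fell. By the brightest probe set of each gene, 1 of the 9 genes rose, 2 fell and 6 did not pass, where 20.4% of all genes passed. The 2 groups were fully separate in 12 of the 19 probe sets (63.2%), 7 higher and 5 lower in tumours, against 47.9% of all probe sets. By brightest probe set they were separate in 7 of 9 genes, against 50.7% of all genes. Over the whole array, 2167 probe sets rose and 1972 fell with all 5 arrays. Calls dropped across the array without tumours 16, 18 and 2 in turn, when 485, 759 and 1875 rose and 442, 663 and 1549 fell. Of the 4 calls, 1 remained without tumour 16, 2 without tumour 18, 2 without tumour 2, 2 without wild type 36 and 0 without wild type 62. Without wild type 62 no probe set of the whole array passed, with 6682 of 22626 at an unadjusted p under 0.05. With probe sets tied within a group also left out, each of those 5 fits kept 3 of the 4 calls.

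**Figure D2:**
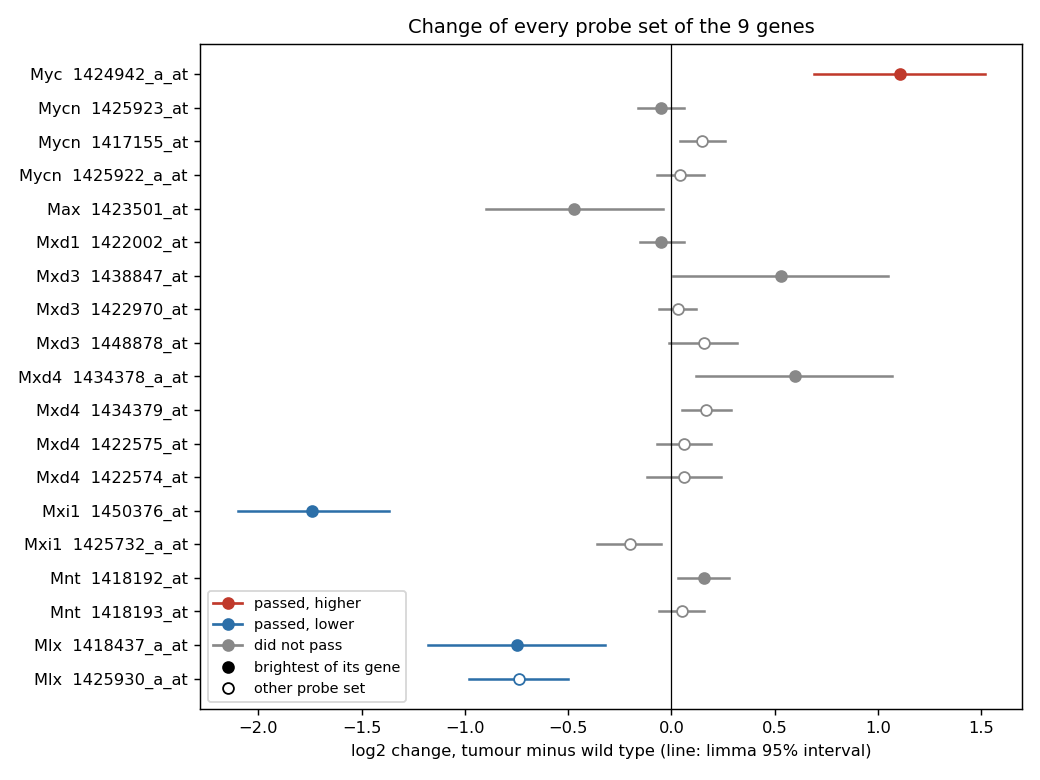
Log2 change, tumour minus wild type, of all 19 probe sets with limma's 95% interval, filled points marking the brightest probe set of a gene. Myc stands at 1.11, Mxi1 at -1.74 and both Mlx probe sets at -0.75 and -0.74, while the 15 grey probe sets did not pass.

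Myc (probe set 1424942_a_at), the activating member of the network, gave log2 signals of 7.60, 7.66 and 7.48 in tumours 16, 18 and 2 and 6.25 and 6.70 in wild types 36 and 62. All 3 tumours lay above both wild types, and the tumours were closer to each other than the wild types were. The mean was 7.58 ± 0.09 (SD, n = 3) in tumours and 6.48 ± 0.31 (SD, n = 2) in wild types. The rise was 1.11 on the log2 scale (SE 0.15, 95% interval 0.69 to 1.52, limma adjusted p = 0.0204), which is 2.15-fold. Both wild-type signals lay below the medians of their arrays (6.81 and 6.83). The value of 6.25 was close to the 25th percentile of wild type 36 (6.04), so the size of the rise is uncertain. The change stayed between 0.88 and 1.33 when any array was left out, but the adjusted p then ran from 0.0505 to 0.0936, so the call was lost in all 5 of those fits. With tied probe sets also left out, Myc passed in all 5 of them, with adjusted p between 0.0210 and 0.0475. Its single probe set is of the class named for shared transcripts of one gene (the ending _a_at). Of the 9 proliferation markers measured, 5 rose and 4 (Pcna, Mcm3, Rrm2 and Bub1) did not pass, and their part in the change of Myc was not tested.

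Mycn, the paralogue of Myc best known from embryonic and neural cells, had 3 probe sets and none passed. The brightest gave 7.79 in all 3 tumours, 7.79 in wild type 36 and 7.88 in wild type 62. Its 4 lower values were thus tied, and the 95% interval of the change ran from -0.16 to 0.06. The second probe set gave 6.67, 6.59 and 6.67 in tumours and 6.47 and 6.52 in wild types, without overlap, with a change of 0.15 (adjusted p = 0.0824 in limma). The third lay between 5.80 and 5.91, below the 25th percentile on all 5 arrays. The nerve and glia markers, of which 3 were measured and 0 passed, were at similar levels in both groups.

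Max, the obligate partner of Myc, moved opposite to it in direction but did not pass. Its signals were 5.87, 6.10 and 6.14 in tumours 16, 18 and 2 and 6.31 and 6.70 in the wild types. The groups did not overlap, and tumour 16, the lowest, lay below the 25th percentile of its own array. All tumour values lay close to the 25th percentiles of their arrays (6.05, 6.06 and 6.03), so the size of the change is uncertain. The change was -0.47 (SE 0.16, 95% interval -0.90 to -0.04, adjusted p = 0.124 in limma).

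Mxi1, a repressor that competes with Myc for Max, had the largest change of the 9 genes. Its brightest probe set (1450376_at) gave 8.24, 8.43 and 8.51 in tumours 16, 18 and 2 and 9.98 and 10.28 in wild types 36 and 62. The highest tumour stood well below the lower wild type. The mean fell from 10.13 ± 0.22 (SD, n = 2) in wild types to 8.39 ± 0.14 (SD, n = 3) in tumours. The change was -1.74 (SE 0.13, 95% interval -2.10 to -1.37, adjusted p = 0.00767 in limma), a 3.33-fold lower signal in tumours. With any array left out the change stayed between -1.89 and -1.58, and the call was lost without wild type 62 (adjusted p = 0.0629). Its second probe set gave a much smaller difference. That probe set gave 6.53, 6.67 and 6.58 in tumours and 6.76 and 6.84 in wild types, also without overlap, with a change of -0.20 (95% interval -0.36 to -0.05, adjusted p = 0.0840 in limma). It passed with quantile normalization (adjusted p = 0.0433) and with median centring (0.0417). Averaged over both probe sets, Mxi1 had a change of -0.97 and still passed (adjusted p = 0.00713). RefSeq lists 3 start sites for Mxi1, and which transcripts each probe set reads was not analysed here. Beside Mxi1, 5 of the 8 enterocyte markers fell, and the part of the enterocyte share in its fall was not tested.

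The Mxd genes, repressors named for Max dimerization, did not pass in any of their 8 probe sets. The brightest probe set of Mxd4 gave 8.09, 8.56 and 8.18 in tumours 16, 18 and 2 and 7.80 and 7.57 in wild types. All tumours lay above both wild types, with tumour 18 the highest, and the change was 0.60 (SE 0.17, 95% interval 0.12 to 1.07, adjusted p = 0.0928 in limma). A second Mxd4 probe set moved in the same direction without overlap, from 6.97 and 6.90 in wild types to 7.15, 7.09 and 7.07 in tumours (change 0.17, adjusted p = 0.0692). The other two Mxd4 probe sets had changes of 0.06 each, with values tied across the tumours at 6.70 and 6.46.

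Mxd3, a family member known from dividing cells, gave 7.03, 7.07 and 6.94 in tumours 16, 18 and 2 and 6.78 and 6.19 in wild types 36 and 62. The tumours were all higher, and the wild types differed from each other by more than the tumours did. The change was 0.53 (SE 0.19, 95% interval 0.01 to 1.05, adjusted p = 0.144 in limma), and it was 0.82 (adjusted p = 0.0264) when wild type 36 and tied probe sets were left out. The other two Mxd3 probe sets had changes of 0.16 and 0.03. One lay below the 25th percentile on all 5 arrays, and the other was tied at 6.10 on 4 arrays.

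Mxd1, which is known from differentiating cells, was near background on every array. It gave 5.92, 5.98 and 5.98 in tumours and 5.98 and 6.03 in wild types, all below the 25th percentile of their arrays. The change was -0.05, with a 95% interval from -0.15 to 0.06.

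Mnt, the broadly expressed repressor that pairs with both Max and Mlx, was nearly level. Its brighter probe set gave 8.49, 8.39 and 8.41 in tumours 16, 18 and 2 and 8.29 and 8.26 in wild types. The groups did not overlap, but the change was 0.16 (SE 0.05, 95% interval 0.03 to 0.28, adjusted p = 0.0911 in limma). Its other probe set lay between 5.87 and 5.99, below the 25th percentile on all 5 arrays, with a change of 0.05.

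Mlx, the Max-like partner of the Mondo proteins, fell in both of its probe sets. The brighter (1418437_a_at) gave 7.67, 7.59 and 7.69 in tumours 16, 18 and 2 and 8.16 and 8.65 in wild types 36 and 62. The tumours were tightly grouped below both wild types, and the change was -0.75 (SE 0.16, 95% interval -1.18 to -0.32, adjusted p = 0.0458 in limma). The dimmer (1425930_a_at) gave 6.09, 5.85 and 6.05 in tumours and 6.71 and 6.76 in wild types, with a change of -0.74 (SE 0.09, 95% interval -0.98 to -0.50, adjusted p = 0.0151). Tumour 18 lay below the 25th percentile of its own array there. The brighter probe set was 1.69-fold lower in tumours. The tumour values of the dimmer lay close to the 25th percentile of their arrays, so the size of its fall is uncertain. With 1 array left out, the brighter passed only without wild type 36 and its change ran from -0.99 to -0.51. The dimmer passed without tumour 18 or tumour 2, with changes from -0.79 to -0.66. Both carry the _a_at ending.

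**Figure D3:**
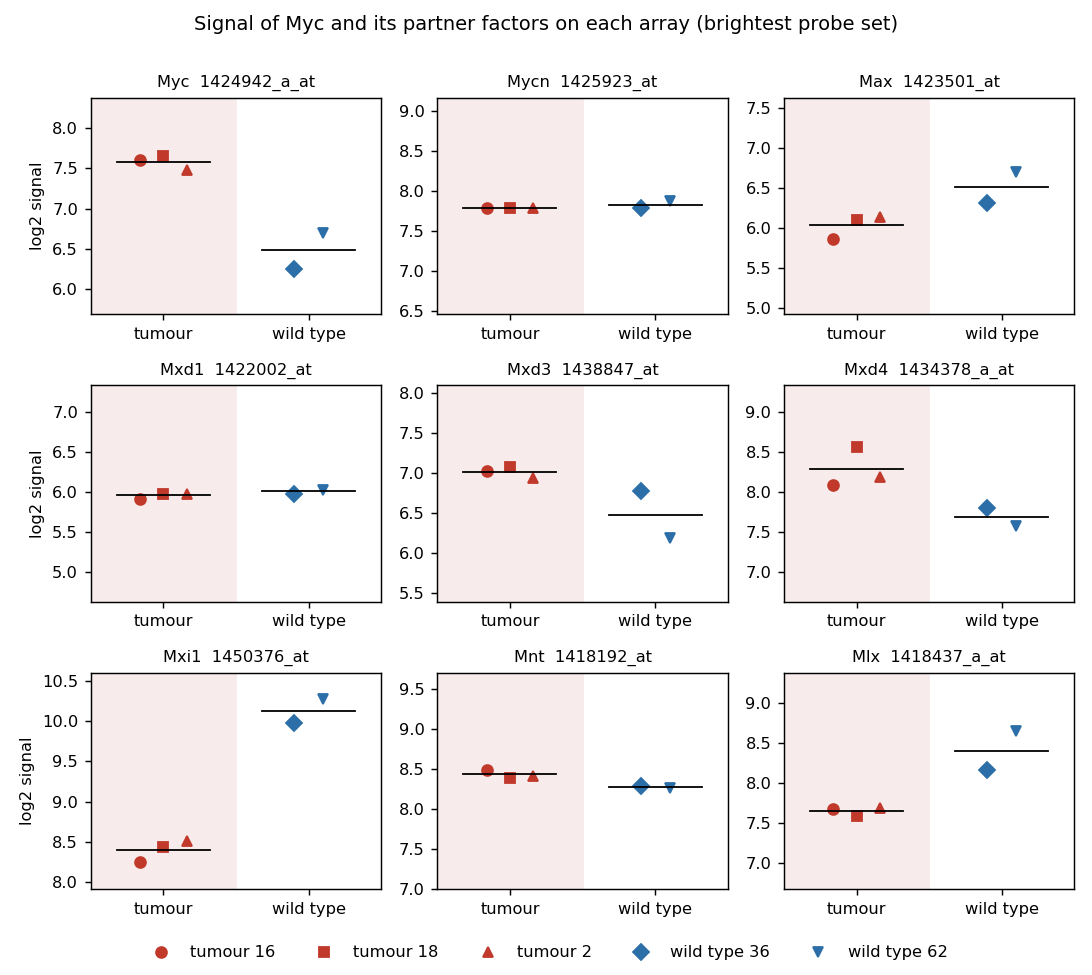
Log2 signal of the brightest probe set of each gene on the 5 arrays, with horizontal lines at the group means and an axis span that is the same in every panel. Myc lies between 7.48 and 7.66 in tumours, Mxi1 between 8.24 and 8.51, and Mlx between 7.59 and 7.69, each apart from its wild types.

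**Figure D4:**
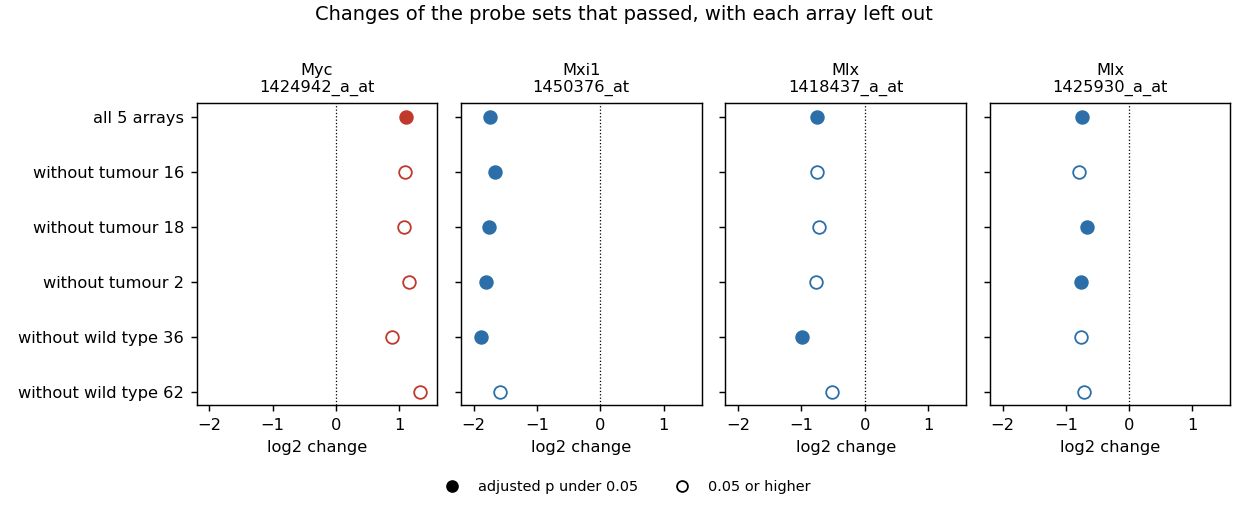
Log2 change of the 4 probe sets that passed, with all 5 arrays and with each array left out, filled where the limma adjusted p was under 0.05. No direction turned, while Myc lost its call in all 5 fits and Mxi1 lost it without wild type 62.

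The members did not move as one. Set against its wild-type mean, Myc stood 1.13, 1.18 and 1.01 higher in tumours 16, 18 and 2. The mean over the 5 repressors Mxd1, Mxd3, Mxd4, Mxi1 and Mnt stood at -0.16, -0.03 and -0.11 in the same tumours. The tumours thus had Myc higher by 1.29, 1.21 and 1.12 relative to the repressors, and most of this was the rise of Myc itself. The wild types lay at -0.27 and 0.27, which mirror each other by construction because their mean was the reference. All these values are differences from each gene's own wild-type level and no comparison of amounts between genes. The repressor mean joined opposite changes. Mxi1 stood at -1.89, -1.70 and -1.62 in tumours 16, 18 and 2, while Mxd3, Mxd4 and Mnt had changes above 0 that did not pass. Mxd1 lay below the 25th percentile on all 5 arrays.

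The genes with the profile most like that of Myc over the 5 arrays were Utp20, Tmpo, Lipt2, Cdca4 and Npm1. Likeness was the distance between log2 profiles, each centred on its own mean, and these lay at 0.11, 0.12, 0.13, 0.13 and 0.14. In all, 361 genes lay within 0.50 of Myc, so the order among them is loose. Utp20 and Npm1 are nucleolar proteins and also stand in the list of Myc targets used here. The genes most like Mxi1 were Mtmr4 (distance 0.058), Samd8 (0.15), Slc25a51 (0.16), Marchf6 (0.16) and Mocs2 (0.19), among 130 genes within 0.50. Mtmr4 gave 6.50, 6.65 and 6.76 in tumours and 8.26 and 8.56 in wild types.

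The remaining genes of the wider network were Mycl, Mga, Mlxip and Mlxipl. Mlxipl encodes ChREBP, the glucose-responsive partner of Mlx, and was the only one of these 4 to pass. It gave 8.27, 7.96 and 8.30 in tumours 16, 18 and 2 and 10.08 and 10.06 in wild types. Like Mlx, it was lower in every tumour than in either wild type, with a change of -1.89 (SE 0.12, 95% interval -2.22 to -1.56, adjusted p = 0.00641 in limma). The call was lost without wild type 36 (0.0569) or wild type 62 (0.0657). The other Mondo gene, Mlxip, gave 8.15, 8.05 and 8.00 in tumours and 7.59 and 7.83 in wild types, a change of 0.36 that did not pass (adjusted p = 0.0730). Mycl and Mga had changes of 0.06 and -0.07 in their brightest probe sets, with 95% intervals from -0.06 to 0.19 and from -0.28 to 0.14.

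Genes controlled by Mlx with its Mondo partners were split. Of 10 measured, 4 fell, 1 rose and 5 did not pass, or 40% and 10%, where 9.92% of all 12393 genes fell and 10.5% rose. The median change was -0.54, against 0.00 over all genes. Khk, which encodes ketohexokinase, the first enzyme of fructose breakdown, fell by 3.26 (SE 0.08, adjusted p = 0.00442 in limma), from 11.19 and 10.98 in wild types to 7.87, 7.78 and 7.83 in tumours. Gpd1, a glycerol-phosphate dehydrogenase, fell by 1.89 (SE 0.14, adjusted p = 0.00738) and Pklr, the liver-type pyruvate kinase, by 1.19 (SE 0.16, adjusted p = 0.0196). Txnip, a brake on glucose uptake and the best known Mondo target, fell by 0.26 (adjusted p = 0.0354). The other Gpd1 probe sets had changes of -1.16, -0.46 and -0.07, of which the first passed, and those of Pklr -0.69, which passed, and -0.20. Against these, Fasn, the fatty acid synthase, rose by 1.83 (SE 0.14, adjusted p = 0.00725), from 7.92 and 7.75 to 9.44, 9.79 and 9.77. G6pc, the last enzyme of glucose release, had a change of -2.23 with an adjusted p of 0.0622. In the same tumours 5 of the 8 absorptive enterocyte markers fell. Without tumour 16, tumour 18, tumour 2, wild type 36 and wild type 62 in turn there were 2, 2, 3, 1 and 0 lower genes, and with tied probe sets also left out 3, 3, 4, 3 and 3.

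Myc target genes were mostly higher in tumours. Of 60 measured, 34 rose, 1 fell and 25 did not pass. The share higher was 56.7%, against 10.5% of all genes, and the median change was 0.57 against 0.00. Shmt2, the mitochondrial serine hydroxymethyltransferase, rose by 2.28 (SE 0.26, adjusted p = 0.0137 in limma), from 8.07 and 7.84 in wild types to 10.49, 10.43 and 9.79 in tumours. Its other 3 probe sets had changes of 0.34, 0.36 and 0.26. Grwd1, a ribosome assembly factor, rose by 1.76 (SE 0.18, adjusted p = 0.0121), with 0.62 and 0.29 in its other probe sets. Srm, the spermidine synthase, rose by 1.67 (SE 0.30, adjusted p = 0.0337), from 7.44 and 7.76 to 9.41, 9.62 and 8.76. The one gene that fell was Slc19a1, the reduced folate carrier, by 0.81 (SE 0.08, adjusted p = 0.0102), and a second probe set fell by 0.52 (adjusted p = 0.0155).

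Among the best known targets of Myc the picture was less even. Cdk4, the cyclin-dependent kinase, rose by 1.57 (SE 0.27, adjusted p = 0.0298) and Npm1, nucleophosmin, 2-fold (95% interval of the log2 change 0.61 to 1.39, adjusted p = 0.0219). The Cdk4 probe set has the ending _x_at, given where probes may also match other genes. Ncl, nucleolin, had a change of 1.54 with an adjusted p of 0.0708, and Odc1, ornithine decarboxylase, one of 0.40 with 0.341. Ldha, lactate dehydrogenase, had a change of -0.52 with an adjusted p of 0.0503. These 5 were chosen as familiar targets after their values were seen. The brightest probe sets of Shmt2 and of Actl6a, Rbbp7 and Rbbp4, named below, have the same _x_at ending as that of Cdk4. That of Grwd1 ends in _s_at, which also marks shared targets. Without the probe sets whose names mark shared targets or shared transcripts of one gene, 25 of 49 measured target genes rose and 1 fell. Beside the target list, 5 of the 9 proliferation markers rose and 0 fell. Without each array in that order there were 6, 8, 34, 4 and 0 higher target genes, and with tied probe sets also left out 17, 21, 39, 18 and 16. Of the 34 called with all arrays, those last 5 fits kept 17, 21, 33, 17 and 12. Calls over the whole array dropped too, from 2167 higher probe sets to 485, 759 and 1875 without tumours 16, 18 and 2. In the promoter windows an E-box was present in 17 of 58 target genes (29.3%), against 8.09% of all genes. It was present in 10 of 30 called higher and in 6 of 25 measured but not called higher.

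**Figure D5:**
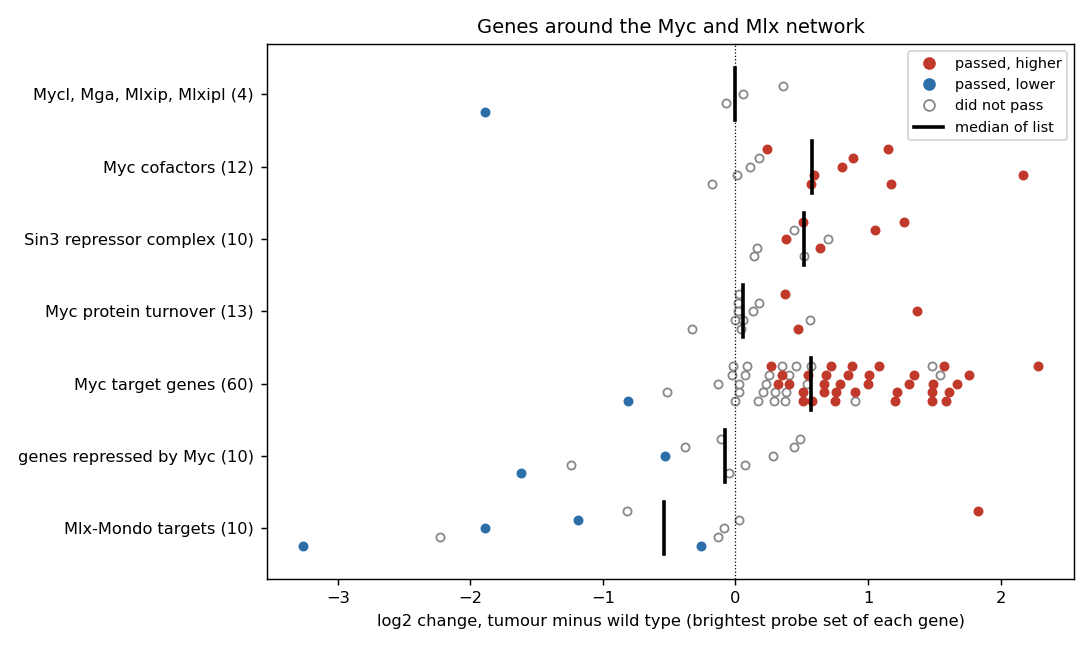
Log2 change, tumour minus wild type, of each measured gene in 7 lists around the network, by brightest probe set, with the number of genes in brackets and a bar at the list median. Red points lie to the right for Myc target genes (median 0.57) and Myc cofactors (0.58), while the Mlx-Mondo targets have their median at -0.54.

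Cofactors of Myc, which include members of chromatin complexes, were the next list. Of 12 measured, 8 rose (66.7%, against 10.5% of all genes), 0 fell and 4 did not pass, with a median of 0.58. The 4 were Ep400, Wdr5, Zbtb17 and Ccnt1, with changes of -0.18, 0.01, 0.11 and 0.18. Without the probe sets whose names mark shared targets or shared transcripts of one gene, 5 cofactors rose. Kat2a, the histone acetyltransferase GCN5, rose by 2.17 (SE 0.29, adjusted p = 0.0190 in limma), from 6.71 and 6.72 in wild types to 9.15, 9.15 and 8.35 in tumours. Tumour 2 was the lowest of the tumours, and the other two Kat2a probe sets had changes of 0.03 and 0.62 that did not pass. Ruvbl2, a helicase-like ATPase, rose by 1.17 (SE 0.18, adjusted p = 0.0234) and Actl6a, an actin-related protein of the same complexes, by 1.15 (SE 0.14, adjusted p = 0.0161). The second Actl6a probe set had a change of 0.39 (adjusted p = 0.253). Without each array in that order there were 1, 1, 5, 0 and 0 higher cofactors, and with tied probe sets also left out 4, 4, 6, 2 and 2.

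The Sin3 complex, which the Mxd proteins, Mxi1 and Mnt recruit to repress genes, was called in part. Of 10 measured genes, 5 rose (50%, against 10.5% of all genes), 0 fell and 5 did not pass, with a median of 0.52 and all 10 changes above 0. Of these, Hdac2 (change 0.44, did not pass) lay below the 25th percentile on all 5 arrays, so it cannot be told from background. Rbbp7 rose by 1.27 (SE 0.10, adjusted p = 0.00776 in limma) and Rbbp4 by 1.05 (SE 0.11, adjusted p = 0.0124), both of which encode histone-binding subunits shared with other chromatin complexes. A second Rbbp7 probe set rose by 0.76 (adjusted p = 0.0420), while the other two of Rbbp4 had changes of 0.08 and 0.05. Ing1, a subunit that reads methylated histone H3, rose by 0.64 (SE 0.07, adjusted p = 0.0117), with 0.13 in its second probe set. Without the probe sets whose names mark shared targets or shared transcripts of one gene, 2 genes rose. In that order, single arrays left out gave 3, 2, 3, 1 and 0 higher genes, and with tied probe sets also left out 3, 3, 6, 4 and 3.

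Genes that control the stability of the Myc protein were mostly not called. Of 13 measured, 3 rose, 0 fell and 10 did not pass, or 23.1% higher against 10.5% of all genes, and the median was 0.06. Set, which inhibits the phosphatase PP2A and so protects Myc, rose by 1.37 (SE 0.16, adjusted p = 0.0139 in limma), and its other 2 probe sets rose by 1.31 and 0.45. Gsk3b, the kinase that marks Myc for degradation, rose by 0.47 (SE 0.08, adjusted p = 0.0325) and Aurka, a mitotic kinase that shields N-Myc, by 0.37 (SE 0.04, adjusted p = 0.0115). Fbxw7 and Skp2, the substrate receptors of ligases that act on Myc, had changes of 0.13 (95% interval -0.17 to 0.42) and 0.02 (-0.06 to 0.10). In that order, single arrays left out gave 0, 0, 2, 0 and 0 higher genes, and with tied probe sets also left out 3, 2, 5, 2 and 0.

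Genes that Myc represses were mostly not called. Of 10 measured, 2 fell (20%, against 9.92% of all genes), 0 rose and 8 did not pass, with a median of -0.08. Gadd45a, a growth arrest gene, fell by 1.62 (SE 0.08, adjusted p = 0.00553 in limma), from 6.47 and 6.71 in wild types to 4.98, 4.93 and 5.02 in tumours. The tumour values lay below the 25th percentile of their arrays, so the size of that fall is uncertain. Cdkn1a, the inhibitor p21 of cyclin-dependent kinases, fell by 0.53 (SE 0.09, adjusted p = 0.0314), with -0.70 in its second probe set (adjusted p = 0.0822). Cdkn2b, the inhibitor p15 and a textbook target of Myc repression, had a change of -1.24 with an adjusted p of 0.146. Its tumour values of 8.00, 7.54 and 8.88 were widely spread. Against these, 4 of the 10 genes had changes above 0, none of which passed. Among them were Cdkn1c (0.49), Gas1 (0.44) and Thbs1 (0.28), each with all tumours above both wild types. When tumour 16 and tied probe sets were left out, 1 gene of the list rose. In that order, single arrays left out gave 1, 2, 3, 1 and 0 lower genes, and with tied probe sets also left out 1, 2, 3, 1 and 1.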

How the data were processed

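The deposited table gives 22690 probe sets on 5 arrays in log2 units, a scale read from the values (3.38 to 14.3). The submitters' processing notes name the R package affy. How the authors corrected background, summarised probes and normalized is not given in the sources used here. RNA was labelled by a small-sample protocol, per the labels' protocols. Values were used as deposited, without the 64 control probe sets. GEO's platform annotation gave 1 symbol for 20380 of 22626 probe sets, several for 691 and none for 1555. Probe sets with several symbols named no gene. A gene in a list was read from its brightest probe set, by the mean of the 5 arrays. Values were tied within a group (within 1e-06) in 2595 probe sets, 11.5% of all and 4 of the 19 here. Ties lower the estimated spread of the tied probe sets. With them left out, 2599 of 20031 probe sets rose and 2303 fell, against 2167 and 1972 of 22626 with them kept.

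Tumour was compared with wild type by lmFit and eBayes of limma 3.58.1 under R 4.3.3, with group as the only term (two-sided). Every adjusted p is limma's, with Benjamini-Hochberg adjustment over all 22626 probe sets and a threshold of 0.05, from a residual df of 3 and a prior df of 1.19. SE is limma's moderated standard error. The number of arrays limits the precision, and an exact permutation test of a single value with 3 against 2 arrays cannot go below p = 0.1, so none is given. The members, gene lists and tests were chosen with earlier results of these data known. From each list up to 3 called genes with the largest change in the majority direction and 1 against it are named, if the groups did not overlap. Other list genes named (Txnip, G6pc, Cdk4, Npm1, Ncl, Odc1, Ldha, Fbxw7, Skp2, Cdkn2b, Ep400, Wdr5, Zbtb17, Ccnt1, Mlxip, Mycl, Mga) were chosen after their values were seen. So were Cdkn1c, Gas1, Thbs1 and Hdac2. The fit was tested on simulated data. Alternatives were quantile normalization, median centring, a filter at the 40th percentile, array weights, trended robust eBayes, 1 probe set per gene, the mean of a gene's probe sets, and leaving out shared-target probe sets, tied probe sets or single arrays. The shared-target probe sets left out were those ending in _s_at, _x_at or _a_at.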

Additional observations from a re-analysis of the deposited data

How the results depend on the processing

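Myc, Mxi1 and both Mlx probe sets kept their direction in every alternative in which they were measured. With all 5 arrays, the change of Myc was 1.07 to 1.12 and that of Mxi1 -1.79 to -1.64 under the other settings that kept single probe sets, and both kept their call. Leaving out probe sets whose endings mark shared targets or shared transcripts of one gene removed Myc and Mlx by construction. Their probe sets end in _a_at, which marks shared transcripts of one gene. That setting left 0 member probe sets higher and 1 lower. The member probe sets that fell numbered 4 with quantile normalization or median centring and 2 with the 40th percentile filter. That filter removed the dimmer Mlx probe set (1425930_a_at), while Mxi1 and the brighter Mlx probe set still passed. Leaving out 1 array gave 0 member probe sets higher and 0 to 2 lower, and 0 to 34 Myc target genes higher and 0 or 1 lower. With tied probe sets also left out it gave 1 or 2 member probe sets higher and 2 lower, and 17, 21, 39, 18 and 16 target genes higher without tumours 16, 18 and 2 and wild types 36 and 62, with 1 or 2 lower. The Myc target genes that fell numbered 2 with quantile normalization, median centring, the 40th percentile filter, 1 probe set per gene, the mean of a gene's probe sets, and tied probe sets left out. Directions turned only in members that had not passed. The Mxd3 probe set 1422970_at had a change of 0.00 with median centring, and Mycn had 0.05 over the mean of its probe sets. With 1 array left out, the Mycn probe set 1425923_at ran from -0.09 to 0.00, Mxd3 1422970_at from 0.00 to 0.06, Mxd4 1422575_at from 0.00 to 0.12 and Mxd4 1422574_at from -0.04 to 0.16, with the values of 0.00 and -0.04 found without wild type 62. The share of higher calls among all called probe sets was 52.4%, 48.2% with median centring and 37.8% without wild type 36. A fit without one wild-type array assumes that the lone array varies like the tumours. No paired analysis was possible because the labels' numbers are not shared between the groups. Signals near the 25th percentile of their array, as for Mxd1, limit what those probe sets can show. The causes of these shifts were not tested where none is stated.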

Other observations

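Other leucine zipper factors that bind E-box-like sites were looked at in a list written after the members' values were seen. Of 8 measured (Usf1, Usf2, Tfeb, Tfec, Mitf, Srebf1, Srebf2 and Tfap4), 1 rose, 0 fell and 7 did not pass, a share of 12.5% higher against 10.5% of all genes, with a median change of 0.03. Srebf1, which drives fatty acid synthesis and is a known regulator of Fasn, gave 9.26, 9.15 and 9.38 in tumours 16, 18 and 2 and 8.52 and 8.47 in wild types, a rise of 0.77 (SE 0.08, limma adjusted p = 0.0118). Usf1 and Usf2, which bind the same CACGTG letters, had changes of -0.03 (95% interval -0.11 to 0.06) and 0.17 (0.03 to 0.31, adjusted p = 0.0967). Tfap4, itself a target of Myc, had a change of 0.34 with an adjusted p of 0.210.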
